A study of Mus musculus with 6 samples.

Results

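The conventional synaptic vesicle release genes considered here are 9 of the 11339 genes in the deposited table: the calcium sensors *Syt1* and *Syt2*, the SNARE genes *Snap25*, *Vamp1*, *Vamp2* and *Stx1a*, the synapsins *Syn1* and *Syn2*, and the complexin *Cplx2*. They were chosen by name as the rows that carry these 9 gene symbols, and all 9 were found. Their RPKM, reads scaled to gene length and library total, was compared between *Mll1KO* and WT retinas.

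At a chemical synapse, the vesicle protein synaptobrevin (VAMP) zips together with the plasma membrane proteins syntaxin and SNAP-25 into the SNARE complex, which pulls the vesicle and the plasma membrane into contact. Complexins bind the assembled complex, synaptotagmins sense the calcium that enters with the impulse and trigger fusion, and synapsins tether the reserve of vesicles. In the retina, amacrine cells form conventional synapses of this kind, whereas photoreceptors and bipolar cells release glutamate at ribbon synapses, where syntaxin 3 and the complexins 3 and 4 take the places of syntaxin 1 and the complexins 1 and 2.

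RNA was sequenced from whole retinas of C57Bl6/J mice at postnatal day 14, with 3 *Mll1KO* libraries (MLL1 fl/fl, with a Cre transgene) and 3 WT libraries (a, b and c in each group), each library made from a pool of retinas. The Cre is active in retinal progenitors, and in these libraries the *Mll1KO* mice alone carry it and the floxed alleles. The study names its sequenced controls as C57Bl6/J wild type, while its qRT-PCR and histology used littermates without Cre. Effects of Cre, of the deletion and of mouse line or litter therefore cannot be told apart. In bulk tissue, fewer cells of a type and less RNA per cell cannot be told apart either. The library totals recovered from RPKM lay between 17961098 and 23836034 reads, and in single libraries the 9 genes had between 439 reads (*Stx1a*) and 34101 reads (*Syt1*).

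*Kmt2a* (ENSMUSG00000002028), the gene that encodes MLL1 and the one targeted, checks the labels. Its RPKM was 36.1, 36.9 and 34.6 in WT a, b and c and 22.9, 20.4 and 22.3 in *Mll1KO* a, b and c. All 3 *Mll1KO* libraries lay below all 3 WT libraries, with reads over all exons counted, also those outside the floxed segment. On the log2(RPKM + 1) scale, the scale of every fold change here and one that shrinks those of weak genes, *Kmt2a* fell by 0.69 (SE 0.05, adjusted p = 2.77e-05 in limma). The tissue label was met by its defining markers, since the rod transducin gene *Gnat1* had a mean RPKM of 4426.6 in WT and 5795.1 in *Mll1KO*.

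Of the 9 release genes, 4 were changed in *Mll1KO* (beside 23.3% of all 11339 genes; limma with Benjamini-Hochberg adjustment over all genes, threshold 0.05). *Stx1a* was the 1 gene that was lower (14.5% of all genes were lower), and *Syt2*, *Vamp1* and *Syn2* were the 3 that were higher (8.81% of all genes were higher). These counts depend on the scaling of the libraries, since limma called 6 of the 9 genes lower and 0 higher (0 also at an unadjusted p under 0.05) once every library was given the same summed level of rod genes. With that scaling 83.0% of all genes were called lower, 9407 genes against 227 called higher. In 5 of the 9 genes (*Syt1*, *Syt2*, *Vamp1*, *Stx1a* and *Syn2*) the *Mll1KO* libraries did not overlap the WT libraries, as was so for 41.1% of all genes. The median log2 fold change of the 9 genes was 0.08, beside -0.03 for all genes. Their summed RPKM was 824.0, 802.5 and 807.6 in WT a, b and c and 837.6, 838.2 and 851.0 in *Mll1KO* a, b and c. The *Mll1KO* mean was 103.8% of the WT mean. Scaling to rod genes, whose own levels differed between the genotypes with the deposited scaling, moved the all-gene median of the log2 fold change by -0.27, from -0.03 to -0.30. Fold changes of single genes under it are therefore also given relative to that median. Of 2643 genes called in the whole table (1704 without WT b and 1757 without *Mll1KO* c), 37.8% were higher with the deposited scaling, beside 53.1% of 2402 with median-of-ratios scaling and 2.4% of 9634 with scaling to rod genes.

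**Figure D1:**
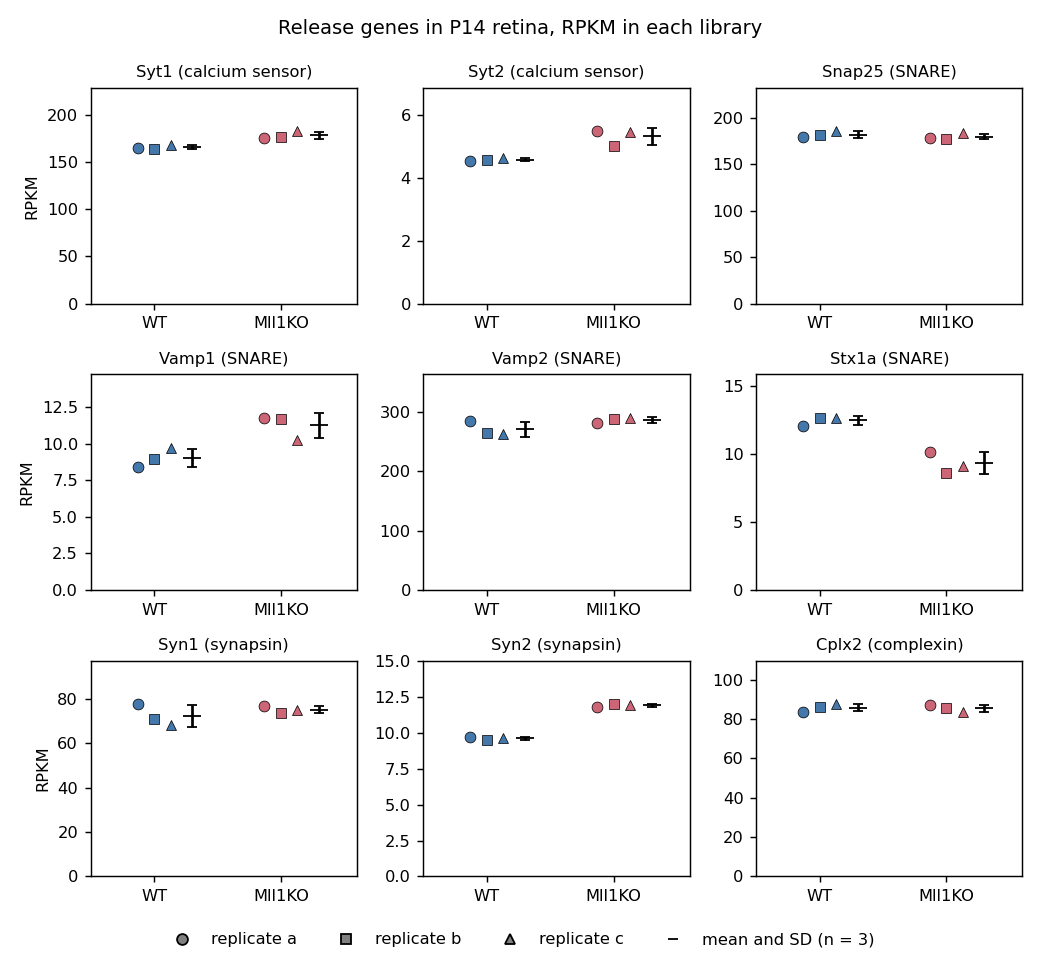
RPKM of the 9 release genes in each library (vertical axes in RPKM from 0), with WT in blue, *Mll1KO* in red, marker shapes for the replicate letters and bars for mean and SD (n = 3). *Stx1a* lies between 8.65 and 10.2 in *Mll1KO*, below the WT range of 12.1 to 12.7, and *Syn2* between 11.8 and 12.0, above the WT range of 9.51 to 9.71.

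Synaptotagmin 1, the fast calcium sensor of many central synapses, had the more abundant transcript of the 2 sensors. The RPKM of *Syt1* was 164.9, 163.7 and 167.7 in WT a, b and c and 175.2, 176.6 and 182.5 in *Mll1KO* a, b and c. Every *Mll1KO* library was above every WT library, but the step between the nearest libraries, from 167.7 to 175.2, was small beside the level. The log2 fold change of *Syt1* was 0.11 (95% confidence interval 0.02 to 0.19), which did not pass the threshold (limma adjusted p = 0.0742), and it turned to -0.20 with scaling to rod genes, 0.10 above the median of all genes. With median-of-ratios scaling *Syt1* was called (limma adjusted p = 0.0305), as it was with limma-voom on recovered reads (adjusted p = 0.044), both times higher. Over all alternatives its limma adjusted p ranged from 0.00234, with scaling to rod genes and the opposite direction, to 0.231.

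Synaptotagmin 2 is the closest relative of synaptotagmin 1 and serves fast release in the hindbrain and spinal cord, and in the retina in some bipolar cells. *Syt2* had an RPKM of 4.55, 4.57 and 4.65 in the WT libraries and of 5.5, 5.03 and 5.46 in the *Mll1KO* libraries. The WT values lay close together, *Mll1KO* b was the nearest to them, and the groups did not overlap. The log2 fold change was 0.18 (SE 0.05, adjusted p = 0.0376 in limma), against -0.08 with scaling to rod genes, which is 0.22 above the median of all genes. The call of *Syt2* was lost without WT a, b or c and without *Mll1KO* a or c, with limma adjusted p-values from 0.0738 to 0.115.

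Among the SNARE genes, syntaxin 1A showed the decrease. *Stx1a* (ENSMUSG00000007207, chromosome 5, 135023482 to 135051100, plus strand in GRCm38) encodes a plasma membrane SNARE of conventional synapses. Its RPKM was 12.1, 12.7 and 12.7 in WT a, b and c and 10.2, 8.65 and 9.17 in *Mll1KO* a, b and c. All *Mll1KO* libraries were below all WT libraries, with *Mll1KO* a the closest to WT. The *Mll1KO* mean of 9.33 ± 0.78 (SD, n = 3) was 74.7% of the WT mean of 12.5 ± 0.308 (SD, n = 3). On the log2 scale *Stx1a* fell by 0.39 (SE 0.06, adjusted p = 0.00163 in limma), and it stayed lower at -0.36 with median-of-ratios scaling and at -0.67 with scaling to rod genes, the latter -0.37 relative to the median of all genes. Without single libraries the log2 fold change ranged from -0.45 to -0.34 and the limma adjusted p reached at most 0.00951.

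*Vamp1* and *Vamp2* encode the vesicle SNAREs synaptobrevin 1 and 2. *Vamp1* (ENSMUSG00000030337, chromosome 6, 125215551 to 125245964, plus strand) had an RPKM of 8.45, 8.96 and 9.7 in WT a, b and c and of 11.8, 11.7 and 10.3 in *Mll1KO* a, b and c. The groups did not overlap, with WT c and *Mll1KO* c the nearest to each other. *Vamp1* was higher on the log2 scale by 0.29 (SE 0.07, adjusted p = 0.0124 in limma) and by 0.32 with median-of-ratios scaling, but by only 0.01 with scaling to rod genes (limma adjusted p = 0.909, the highest of its alternatives), 0.31 above the median of all genes. *Vamp2*, the dominant form, had an RPKM of 284.3, 264.9 and 262.0 in the WT libraries and of 281.4, 287.3 and 290.3 in the *Mll1KO* libraries. WT a lay within the *Mll1KO* range while WT b and c lay below it, so the groups overlapped. The log2 fold change of *Vamp2* was 0.08 with a 95% confidence interval from -0.02 to 0.19 (limma adjusted p = 0.22), and -0.22 with scaling to rod genes, 0.08 above the median of all genes. *Vamp1* made up 2.89%, 3.27% and 3.57% of the summed RPKM of both genes in WT a, b and c and 4.01%, 3.9% and 3.43% in *Mll1KO* a, b and c.

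*Snap25*, the gene of the plasma membrane SNARE that contributes a pair of helices to the complex, had an RPKM of 178.7, 181.5 and 185.5 in WT a, b and c and of 178.2, 177.5 and 183.2 in *Mll1KO* a, b and c. The groups overlapped almost completely. Its log2 fold change was -0.02, with a 95% confidence interval from -0.10 to 0.07 (limma adjusted p = 0.78), 0.02 with median-of-ratios scaling and -0.32 with scaling to rod genes, -0.02 relative to the median of all genes.

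Synapsins coat vesicles and hold them in the reserve pool. *Syn1* had an RPKM of 77.6, 70.7 and 68.1 in WT a, b and c and of 76.8, 73.6 and 74.9 in *Mll1KO* a, b and c. WT a was the highest of the 6 libraries and WT c the lowest, and the *Mll1KO* values lay inside the WT range. The log2 fold change of *Syn1* was 0.06 with a 95% confidence interval from -0.05 to 0.17 (limma adjusted p = 0.441), and -0.24 with scaling to rod genes, 0.06 above the median of all genes. With the deposited scaling it was 0.11 without WT a and 0.02 without WT c. *Syn2* (ENSMUSG00000009394, chromosome 6, 115134902 to 115282006, plus strand) had an RPKM of 9.71, 9.51 and 9.62 in WT a, b and c and of 11.8, 12.0 and 11.9 in *Mll1KO* a, b and c. Its libraries agreed closely within each genotype and the groups lay well apart, at 9.62 ± 0.101 (SD, n = 3) and 11.9 ± 0.0671 (SD, n = 3). The WT and *Mll1KO* SDs of *Syn2* were smaller than its counting error, which is 3.09% of the level in the library with the fewest reads (1050). The *Mll1KO* mean of *Syn2* was 123.9% of WT, a log2 fold change of 0.28 (SE 0.04, adjusted p = 0.00156 in limma), which was 0.31 with median-of-ratios scaling and 0.00 with scaling to rod genes, 0.30 above the median of all genes. *Timp4*, on the opposite strand within *Syn2*, shares 1.3% of the exon bases of *Syn2*, and whether reads were counted by strand is not given in the sources used here.

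*Cplx2*, a complexin of conventional synapses, had an RPKM of 83.7, 86.0 and 87.6 in WT a, b and c and of 86.9, 85.8 and 83.3 in *Mll1KO* a, b and c. The groups overlapped over nearly their whole range. Its log2 fold change was -0.01 with a 95% confidence interval from -0.09 to 0.08 (limma adjusted p = 0.91), 0.03 with median-of-ratios scaling and -0.31 with scaling to rod genes, -0.01 relative to the median of all genes.

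The levels of the 9 genes, compared per length as RPKM, were separated by a wide gap between *Syn1* and the genes below it in both genotypes. In WT the order from the highest mean was *Vamp2* at 270.4, *Snap25* at 181.9, *Syt1* at 165.4, *Cplx2* at 85.8 and *Syn1* at 72.1, followed at a distance by *Stx1a* at 12.5, *Syn2* at 9.62, *Vamp1* at 9.04 and *Syt2* at 4.59. Neighbours in this order did not overlap in their libraries except *Syn2* and *Vamp1*. In *Mll1KO* the first 5 genes had the same order, and *Snap25* at 179.6 and *Syt1* at 178.1 overlapped. Below the gap the order was another, with *Syn2* at 11.9 and *Vamp1* at 11.2 above *Stx1a* at 9.33, and none of these neighbours overlapped. The 4 genes called with the deposited scaling stood below the gap. *Syt1*, called higher with median-of-ratios scaling and limma-voom, stood above it. So did *Syt1*, *Snap25*, *Vamp2*, *Syn1* and *Cplx2*, which with *Stx1a* were the 6 genes called lower with scaling to rod genes. RPKM uses the gene length chosen by the authors, and the length recovered from the values differed from that of GENCODE vM21 for *Vamp1* (8746 against 10167 bases) and *Syn2* (5646 against 7031 bases), which bears on their place in the order and, through the added 1 RPKM, on the size of their log2 fold changes (0.31 for each with 0.1 RPKM added instead).

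At ribbon synapses syntaxin 3 stands in for syntaxin 1, and *Stx3* was the more abundant transcript here. *Stx3* had an RPKM of 151.6, 150.0 and 143.4 in WT a, b and c and of 151.9, 152.8 and 155.9 in *Mll1KO* a, b and c. The groups did not overlap, though WT a and *Mll1KO* a lay next to each other. Its log2 fold change was 0.05 with a 95% confidence interval from -0.04 to 0.14 (limma adjusted p = 0.399), and -0.25 with scaling to rod genes, 0.05 above the median of all genes. The log2 ratio of *Stx3* to *Stx1a*, which no library scaling can change, was 3.57 ± 0.07 (SD) in WT and 4.04 ± 0.13 (SD) in *Mll1KO*, a difference of 0.47. The groups did not overlap in this ratio (two-sided exact permutation test, p = 0.1, the smallest that 3 against 3 libraries allow, and 0.114 after adjustment over 8 paralog pairs). With this test no ratio over 3 against 3 libraries could pass 0.05.

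The complexins of ribbon synapses changed in opposite directions with the deposited and with median-of-ratios scaling, whereas with scaling to rod genes the decrease of *Cplx3* alone was called. *Cplx3* had an RPKM of 121.3, 113.0 and 121.8 in WT a, b and c and of 85.8, 89.9 and 102.4 in *Mll1KO* a, b and c. It fell by 0.36 on the log2 scale (SE 0.06, adjusted p = 0.0036 in limma), also with scaling to rod genes (-0.66, or -0.36 relative to the median of all genes). *Cplx4* had an RPKM of 198.3, 186.0 and 191.1 in WT and of 234.4, 234.2 and 246.8 in *Mll1KO*. It was higher by 0.31 on the log2 scale (SE 0.04, adjusted p = 0.000956 in limma), against 0.01 with scaling to rod genes, 0.31 above the median of all genes. Neither gene's libraries overlapped between the genotypes. *Cplx1*, the other complexin of conventional synapses, fell by 0.15 (limma adjusted p = 0.0328), a call that was lost with median-of-ratios scaling (adjusted p = 0.0974) and without WT a, WT c, *Mll1KO* b or *Mll1KO* c (0.0842 to 0.119, the highest of its alternatives, the lowest being 1.26e-05 with scaling to rod genes). Relative to *Cplx2*, the log2 ratio of *Cplx3* differed by -0.35, that of *Cplx4* by 0.32 and that of *Cplx1* by -0.15 between *Mll1KO* and WT (two-sided exact permutation p = 0.1 and adjusted p = 0.114 for each, without overlap of the groups). The summed RPKM of the 4 complexins was 471.1, 447.9 and 467.1 in WT a, b and c and 468.5, 468.3 and 489.8 in *Mll1KO* a, b and c. The groups overlapped. Within that sum the share of *Cplx4* went from 41.5% to 50.1% and that of *Cplx3* from 25.7% to 19.5%, while *Cplx2* held 18.6% and 18%.

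The remaining ratios set the minor against the major form of the same protein. The log2 ratio of *Syn2* to *Syn1* was -2.90 ± 0.09 (SD) in WT and -2.66 ± 0.04 (SD) in *Mll1KO*, and that of *Syt2* to *Syt1* was -5.17 ± 0.01 (SD) and -5.06 ± 0.07 (SD), in both cases without overlap (two-sided exact permutation p = 0.1, adjusted p = 0.114). The log2 ratio of *Vamp1* to *Vamp2* was -4.90 ± 0.16 (SD) in WT and -4.67 ± 0.13 (SD) in *Mll1KO*, with overlap between the groups (two-sided exact permutation p = 0.2, adjusted p = 0.2). The *Vamp1* to *Vamp2* difference of 0.23 was 0.15 without WT a, and the *Syt2* to *Syt1* difference of 0.11 was 0.07 without *Mll1KO* a.

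**Figure D2:**
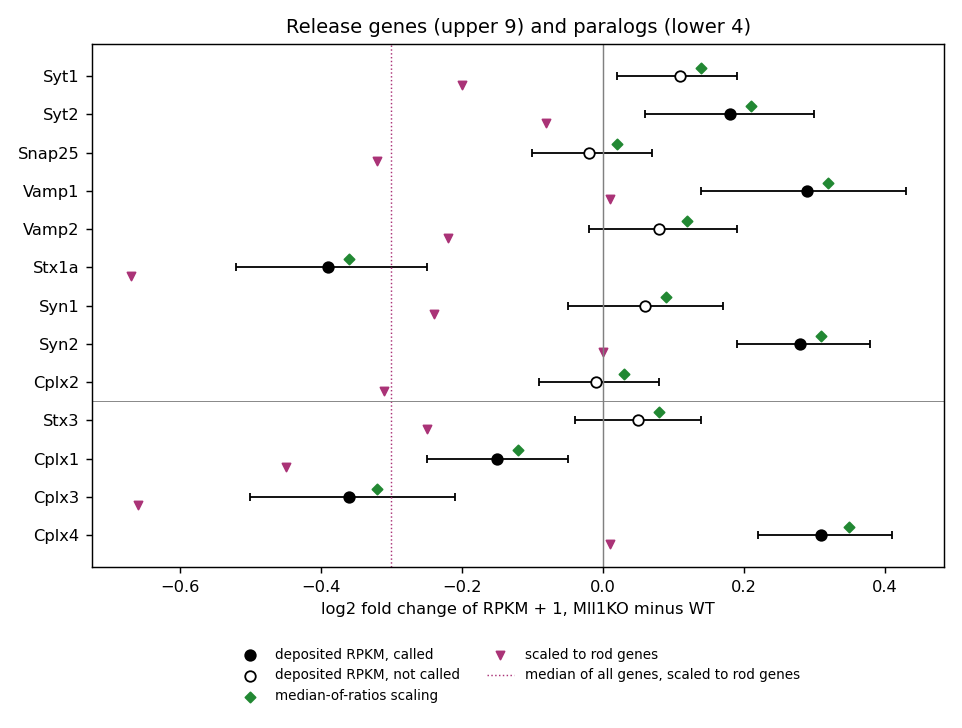
Log2 fold change of RPKM + 1 (horizontal axis, *Mll1KO* minus WT) for the 9 release genes and 4 paralogs, with 95% confidence intervals for the deposited scaling (filled where called by limma), diamonds for median-of-ratios scaling and triangles for scaling to rod genes. *Stx1a*, *Cplx1* and *Cplx3* are below 0 under all 3 scalings, while the increases of *Syt2*, *Vamp1*, *Syn2* and *Cplx4* shrink to between -0.08 and 0.01 with scaling to rod genes, whose median over all genes is the dotted line at -0.30.

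A wider list of vesicle release and recycling genes held 121 genes, of which 115 were measured. Not in the table were *Syt10*, *Syt12*, *Syt17*, *Doc2a*, *Prrt2* and *Sh3gl3*. Of the 115 genes, 12 were lower and 18 were higher in *Mll1KO* (beside 14.5% of all genes lower and 8.81% higher, the shares to set beside the counts of each role group too), with a median log2 fold change of 0.02 beside -0.03 for all genes, and in 60 genes the groups did not overlap (41.1% of all genes). With median-of-ratios scaling 8 of them were lower and 26 higher (9.93% and 11.3% of all genes). With scaling to rod genes 94 of them were lower and 0 were higher in limma (0 also at an unadjusted p under 0.05), and 9407 of the 9634 genes then called in the table were lower. The count of higher genes was 11 without *Mll1KO* c. Among 12 synaptotagmins and other calcium sensors, 1 gene was called. This was *Doc2b*, a high-affinity calcium sensor of spontaneous and asynchronous release, which fell by 0.35 (SE 0.06, adjusted p = 0.00236 in limma) from an RPKM of 50.4, 50.8 and 47.9 in WT to 37.2, 42.6 and 36.4 in *Mll1KO*. With scaling to rod genes it was at -0.65, -0.35 relative to the median of all genes. Among 18 SNARE genes beside the members, limma called 3 lower and 0 higher (1 higher at an unadjusted p under 0.05). *Stx6*, a syntaxin of the trans-Golgi network, fell by 0.23 (limma adjusted p = 0.00444). *Stx16*, of the same compartment, fell by 0.19 (limma adjusted p = 0.0299), a call lost with median-of-ratios scaling (adjusted p = 0.056) and without WT b, WT c, *Mll1KO* b or *Mll1KO* c (0.0697 to 0.115, the highest of its alternatives, the lowest being 4.38e-05 with scaling to rod genes). The remaining gene, named after its value was seen, was *Snap29*, a relative of *Snap25* that acts at endosomes and autophagosomes, at -0.19 (limma adjusted p = 0.037). Its call was lost with median-of-ratios scaling (adjusted p = 0.0673) and without WT a, b or c and *Mll1KO* b or c (up to 0.123, the highest of its alternatives, the lowest being 9.08e-05 with scaling to rod genes). With median-of-ratios scaling limma thus called 1 of the 18 SNARE genes lower and 0 higher (3 higher at an unadjusted p under 0.05).

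Among 19 SNARE regulators and disassembly genes, 3 were lower and 4 higher (14.5% and 8.81% of all genes), and 1 and 6 with median-of-ratios scaling (9.93% and 11.3% of all genes). Beside the complexins the largest increase was that of *Stxbp6* (amisyn), at 0.25 (limma adjusted p = 0.00589) with the deposited scaling and 0.02 with scaling to rod genes, 0.32 above the median of all genes. Among 22 genes of the active zone and the Rab3 cycle, 2 were lower and 3 higher (14.5% and 8.81% of all genes), and 2 and 5 with median-of-ratios scaling (9.93% and 11.3% of all genes). The small GTPase gene *Rab3d* fell by 0.30 (limma adjusted p = 0.00209) and the active zone scaffold gene *Erc1* by 0.29 (limma adjusted p = 0.00566). With scaling to rod genes they were at -0.49 and -0.55, or -0.19 and -0.25 relative to the median of all genes. *Rab27b* was higher by 0.28 (limma adjusted p = 0.00795) and *Rims3* by 0.24 (limma adjusted p = 0.00877), against 0.07 and -0.04 with scaling to rod genes, 0.37 and 0.26 above the median of all genes. *Rab3d*, with a mean RPKM of 1.92 in WT and 1.36 in *Mll1KO*, and *Rab27b*, with 1.76 and 2.35, were among the weakly expressed genes of the list.

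The 19 vesicle membrane proteins, synapsins and transmitter loaders had 0 lower (1 at an unadjusted p under 0.05) and 5 higher genes by limma (14.5% and 8.81% of all genes), and the highest median of the 6 role groups, 0.09. With scaling to rod genes 13 of them were lower and 0 higher, with a median of -0.21 beside -0.30 for all genes. Their summed RPKM was 1463.8, 1456.1 and 1499.8 in WT a, b and c and 1622.3, 1716.6 and 1689.2 in *Mll1KO* a, b and c. *Slc17a7*, the vesicular glutamate transporter of photoreceptors and bipolar cells, was the most abundant gene. Its mean RPKM was 652.5 in WT and 761.3 in *Mll1KO*, beside means of 1473.2 and 1676.0 for the sum, so it carried much of the rise. *Slc17a7* was higher by 0.22 (limma adjusted p = 0.0118), a call lost with scaling to rod genes (adjusted p = 0.154). *Sv2a*, a glycoprotein of most synaptic vesicles, had an RPKM of 147.8, 147.7 and 160.3 in WT and of 178.3, 183.5 and 184.2 in *Mll1KO*. It was higher by 0.26 (SE 0.04, adjusted p = 0.00295 in limma), and the vesicle protein gene *Syngr3* by 0.25 (limma adjusted p = 0.00623), but both were at -0.04 with scaling to rod genes, 0.26 above the median of all genes.

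Among 25 genes of vesicle endocytosis, 3 were lower and 6 higher (14.5% and 8.81% of all genes). *Hspa8*, the Hsc70 chaperone that strips clathrin from vesicles and also serves protein folding in all cells, had an RPKM of 72.6, 66.5 and 67.4 in WT a, b and c and of 19.2, 18.4 and 18.1 in *Mll1KO* a, b and c. The *Mll1KO* mean was 27.0% of WT, and on the log2 scale *Hspa8* fell by 1.84 (SE 0.05, adjusted p = 2.43e-08 in limma), the lowest value of the 115 genes under the deposited scaling, with *Cplx3* next at -0.36. The value of *Hspa8* is uncertain, since 39.38% of the 50-base stretches of its transcripts also occur in transcripts of other genes, *Gm15459* sharing the most, against 0.00% for *Stx1a* and at most 2.12% for any of the 9 release genes. *Hspa8* also lies on chromosome 9 (40800984 to 40810087), as does the targeted *Kmt2a* (44803355 to 44881296). Whether DNA linked to the targeted allele has a part in its fall was not tested. *Ap2m1*, of the clathrin adaptor AP-2, fell by 0.25 (limma adjusted p = 0.00312). With scaling to rod genes *Hspa8* and *Ap2m1* were at -2.13 and -0.54, or -1.83 and -0.24 relative to the median of all genes. *Pacsin1* and *Dnm1*, whose proteins act in membrane bending and scission at the synapse, were higher by 0.23 (limma adjusted p = 0.0034) and 0.22 (limma adjusted p = 0.00516), against -0.07 and -0.09 with scaling to rod genes, which is 0.23 and 0.21 above that median.

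**Figure D3:**
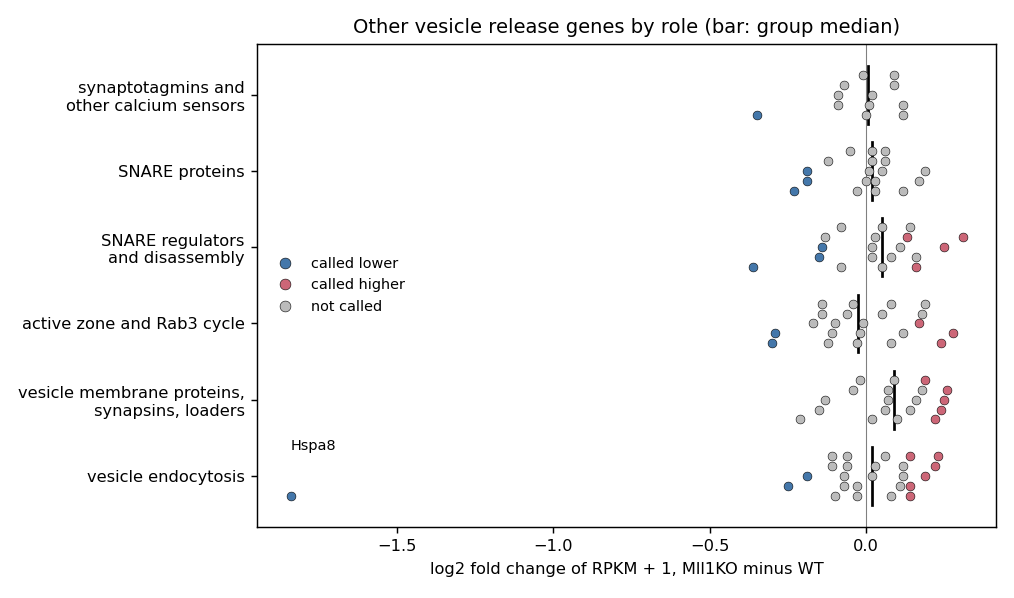
Log2 fold change of RPKM + 1 (horizontal axis, *Mll1KO* minus WT, deposited scaling) of the 115 other vesicle release and recycling genes, 1 point per gene in rows by role, with genes called lower by limma in blue, called higher in red, and a bar at each group median. Group medians lie between -0.02 and 0.09, and *Hspa8* at -1.84 stands apart, while with scaling to rod genes no gene of the list is called higher.

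Markers of the cell classes of the retina also differed between the genotypes, and their part in the results above was not tested. Of all genes 8.81% were higher and 14.5% lower. Of 18 rod genes 12 were higher and 1 lower, and their summed RPKM was 19847.5, 18874.5 and 19369.8 in WT a, b and c and 23799.3, 24355.4 and 23589.3 in *Mll1KO* a, b and c. Of 12 cone genes 7 were higher and 1 lower, with sums of 559.2, 584.3 and 596.0 in WT and 625.4, 658.9 and 668.4 in *Mll1KO*. *Gnb3* was the most abundant. These directions belong to the deposited scaling, since scaling to rod genes makes the rod sums equal by construction (2 rod genes were then higher and 5 lower, and 3 cone genes higher and 5 lower).

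The inner retina neuron classes had more lower than higher genes with the deposited scaling. With scaling to rod genes 16 of 16 bipolar, 11 of 16 amacrine, 8 of 8 horizontal and 12 of 12 ganglion cell genes were lower and 0 higher by limma, beside 83.0% of all genes lower. *Tfap2b* stood in both the horizontal and the amacrine list, and *Slc32a1*, *Slc18a3* and *Slc17a6* also stood in the list of release genes above. Of 16 bipolar genes 8 were lower and 0 higher by limma (0 also at an unadjusted p under 0.05), with sums of 678.5, 668.0 and 658.4 in WT a, b and c and 560.1, 565.3 and 575.8 in *Mll1KO* a, b and c. Of 16 measured amacrine genes (*Th* and *Vip* were not in the table) 8 were lower and 3 higher (8 and 5 with median-of-ratios scaling), and the sums were 747.4, 746.3 and 767.1 in WT and 679.8, 663.8 and 702.2 in *Mll1KO*. *Calb2* was the most abundant, with an RPKM of 242.2, 259.5 and 262.8 in WT and of 199.5, 176.6 and 164.2 in *Mll1KO*. Without it the amacrine sum was 100.6% of WT, a sum added after the values were seen. The median log2 fold change of the 16 amacrine genes was -0.09, and the genes of GABA synthesis were split, *Gad1* at 0.30 and *Gad2* at -0.49 (0.00 and -0.77 with scaling to rod genes, or 0.30 and -0.47 relative to the median of all genes). Of 8 measured horizontal cell genes (*Lhx1* and *Gja10* were not in the table) 7 were lower, with sums of 201.6, 202.2 and 198.3 in WT and 145.8, 138.9 and 145.9 in *Mll1KO*. The gene not called was *Calb1*, at -0.13 (limma adjusted p = 0.201). In the paper's antibody list *Prox1* also marks amacrine and bipolar cells. *Nefm* was the most abundant. Of 12 measured ganglion cell genes (*Pou4f3* and *Isl2* were not in the table) 11 were lower, with sums of 657.1, 619.4 and 652.2 in WT and 511.0, 464.6 and 442.8 in *Mll1KO*. *Sncg* was the most abundant. The summed level of the 9 release genes, at 103.8% of WT, stood beside sums of 90.5% for amacrine (100.6% without *Calb2*), 84.9% for bipolar, 73.5% for ganglion (75.3% without *Sncg*) and 71.5% for horizontal cell genes (72.7% without *Nefm*) and 123.5% for rod genes. Most of the release sum, 811.4 RPKM in the WT mean, came from *Vamp2* (270.4), *Snap25* (181.9) and *Syt1* (165.4). The called release genes hardly entered it, and which cells the abundant transcripts come from was not tested. Of 12 Muller glia genes 7 were higher and 1 lower, with sums of 1478.4, 1457.6 and 1604.3 in WT and 1882.3, 1964.4 and 1933.2 in *Mll1KO*. *Glul* was the most abundant, and with scaling to rod genes 4 genes were higher and 5 lower.

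Markers of tissue outside the neural retina varied between libraries, without a call under the deposited scaling. The 3 measured pigment epithelium genes (*Rpe65*, *Lrat*, *Best1*, *Tyr* and *Mlana* were not in the table) summed to 149.2, 94.5 and 221.2 RPKM in WT a, b and c and to 79.3, 163.3 and 81.5 in *Mll1KO* a, b and c. *Ttr* was the most abundant. The 4 measured blood genes (*Alas2* was not in the table) summed to 101.1, 80.9 and 206.7 in WT and to 134.3, 177.9 and 212.3 in *Mll1KO*, *Hbb-bs* being the most abundant. Of 8 lens genes *Cryaa* alone was in the table, at 6.54, 6.61 and 7.51 in WT and 32.1, 12.4 and 7.28 in *Mll1KO*. *Stx1a*, *Vamp1* and *Syn2* kept their call and direction when any of these libraries was left out. *Syt2* kept its direction but lost its call without WT a, b or c and without *Mll1KO* a or c.

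MLL1 is a histone H3 lysine 4 methyltransferase that acts at many promoters, and the promoters of the 3 release genes with the lowest adjusted p are shown, with that of *Syn1*, which was not called, for comparison. RefSeq promoter windows (build GRCm38.p6, from 250 bases before to 50 bases after the start of the gene) matched 7 of the 9 genes by symbol, *Snap25* and *Vamp2* being without a match. The window of *Cplx2* starts from a point 68793 bases from the annotated start of the gene used here, so it is not described, while the other 6 lay within 86 bases of it. Where a gene had more than 1 window, the one nearest the annotated start was used. Both strands were searched for a GC box (GGGCGG, or CCGCCC on the other strand), the cyclic AMP response element (TGACGTCA, its own reverse complement), the left part of the RE1 element (TTCAGCACC, or GGTGCTGAA) and a TATA box (TATAAA, or TTTATA). Of all 32851 windows of this length, 35.7% hold the GC box, 1.79% the cyclic AMP response element, 0.371% the RE1 part and 13.6% the TATA box. Matches are in capitals below, written 5′ to 3′ on the strand of the gene, and none of the matches printed overlaps another. The windows are *Stx1a* at chr5:135023232-135023531 on the plus strand, *Vamp1* at chr6:125215331-125215630 on the plus strand, *Syn2* at chr6:115134652-115134951 on the plus strand and *Syn1* at chrX:20920869-20921168 on the minus strand.
Stx1a: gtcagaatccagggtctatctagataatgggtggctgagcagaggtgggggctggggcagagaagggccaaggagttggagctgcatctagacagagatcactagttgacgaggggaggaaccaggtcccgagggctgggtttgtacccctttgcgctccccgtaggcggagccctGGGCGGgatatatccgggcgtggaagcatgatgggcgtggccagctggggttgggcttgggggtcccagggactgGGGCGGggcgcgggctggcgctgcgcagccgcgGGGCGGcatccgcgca
Vamp1: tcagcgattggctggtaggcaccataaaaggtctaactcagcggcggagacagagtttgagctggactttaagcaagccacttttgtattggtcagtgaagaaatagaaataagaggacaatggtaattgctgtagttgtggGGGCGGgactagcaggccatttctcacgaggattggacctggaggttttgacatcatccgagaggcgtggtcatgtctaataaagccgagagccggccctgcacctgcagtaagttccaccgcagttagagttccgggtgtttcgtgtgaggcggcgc
Syn2: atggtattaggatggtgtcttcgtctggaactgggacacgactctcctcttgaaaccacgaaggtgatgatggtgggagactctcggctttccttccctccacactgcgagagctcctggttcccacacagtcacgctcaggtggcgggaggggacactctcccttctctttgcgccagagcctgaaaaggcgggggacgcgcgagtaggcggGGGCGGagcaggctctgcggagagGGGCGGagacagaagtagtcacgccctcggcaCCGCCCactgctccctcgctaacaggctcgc
Syn1: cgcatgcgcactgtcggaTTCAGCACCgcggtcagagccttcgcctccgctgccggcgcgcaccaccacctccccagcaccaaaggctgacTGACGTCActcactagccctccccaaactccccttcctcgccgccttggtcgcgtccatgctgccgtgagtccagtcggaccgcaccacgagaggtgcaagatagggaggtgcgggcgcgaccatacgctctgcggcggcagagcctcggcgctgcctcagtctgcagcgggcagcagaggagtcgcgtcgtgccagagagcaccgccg

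The GC box was found 3 times in the window of *Stx1a*, the gene that fell, 3 times in that of *Syn2* and 1 time in that of *Vamp1*, which were higher with the deposited scaling and at 0.00 and 0.01 with scaling to rod genes, 0.30 and 0.31 above the median of all genes. The window of *Syn1* held 0 GC boxes, 1 cyclic AMP response element and 1 RE1 part. The 4 printed windows had 19 (*Stx1a*), 14 (*Vamp1*), 21 (*Syn2*) and 33 (*Syn1*) CpG dinucleotides, where the median over all windows was 7 and the upper quartile 20. G and C made up 66.3%, 51.7%, 62.3% and 68.3% of the bases in the same order, beside a median of 52.7% over all windows. Among the windows not printed, that of *Syt2* had 34 CpG dinucleotides and 4 GC boxes, and that of *Syt1* had 8 and 1. Genes with a called change and genes without one occurred both above and below the upper quartile of CpG content, and no histone mark was measured in these libraries.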

How the data were processed

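RNA-seq reads of 3 *Mll1KO* and 3 WT libraries were aligned by the authors with STAR 2.0.4b to mm10 and counted per gene with featureCounts 1.45. The deposited values used here are RPKM, made by the authors from these counts after a filter on low counts. The table also holds log fold change, log CPM, p-value and FDR columns of the authors' edgeR comparison, and none of these was used. The 11404 lines held 11339 genes (59 gene IDs were repeated), and 18 symbols written as dates were restored from gene IDs. Library totals and gene lengths were recovered as the values that make reads whole (99.99% of genes within 0.05 reads in all 6 libraries), and 690 genes allowed more than 1 length. Of the totals 98.3% to 98.4% lay on the listed genes.

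Genotypes were compared with limma 3.58.1 (R 4.3.3) on log2(RPKM + 1) with a variance trend, without other terms, two-sided, with adjustment over all genes. No filter was added. Samples are biological replicates per the study's methods, and p-values measure the spread between them. Log2 ratios of 8 paralog pairs were tested with exact permutation tests over libraries, and values of some genes of the lists and pairs are not reported here. Named are the 9 release genes, *Kmt2a*, the paralogs of the ratios, and in each role group the 2 highest and 2 lowest called fold changes. The release genes and the lists were chosen with earlier results of these data known. Alternatives were pseudocounts of 0.1 and 5, a mean RPKM of at least 1, limma-voom on recovered reads, median-of-ratios scaling, scaling to 18 rod genes, a replicate block, and leaving out each library. Coordinates come from GENCODE vM21 (GRCm38), matched by 11329 genes. Python 3.11.15 with numpy 2.4.6, pandas 2.3.3 and matplotlib 3.10.9 was used.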

Additional observations from a re-analysis of the deposited data

How the results depend on the processing

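Scaling to rod genes moved the counts most: 6 release genes were lower and 0 higher by limma, 94 genes of the wider list were lower and 0 higher, and 9634 genes were called in the whole table (83.0% of all genes lower). With the deposited and median-of-ratios scaling the rod genes themselves differ between the genotypes, and which scaling is nearer to RNA per retina was not tested. That scaling also took below 0 the log2 fold changes of *Syt1* (-0.20), *Syt2* (-0.08), *Vamp2* (-0.22), *Syn1* (-0.24), *Stx3* (-0.25), *Rims3* (-0.04), *Sv2a* (-0.04), *Syngr3* (-0.04), *Pacsin1* (-0.07) and *Dnm1* (-0.09), all of which lay 0.05 to 0.26 above the median of all genes under it (-0.30). Median-of-ratios scaling reversed *Snap25* (0.02) and *Cplx2* (0.03), which lie near 0. Without single libraries, *Cplx2* ranged from -0.02 to 0.01, *Snap25* from -0.03 to -0.0034, *Syn1* from 0.02 to 0.11 and *Stx3* from 0.03 to 0.07. The count of all genes called ranged from 1704 (without WT b) to 2536, that of higher genes of the wider list from 11 (without *Mll1KO* c) to 19, that of lower ones from 8 to 15, and that of higher release genes from 2 to 3, while 1 release gene was lower each time. Adding 5 RPKM before the ratio, which by construction pulls ratios of weak genes to 0, gave differences of 0.0032 for *Syt2*/*Syt1*, 0.15 for *Syn2*/*Syn1* and 0.34 for *Stx3*/*Stx1a*. The other 88 recomputed ratio differences moved by less than 1 SD, pooled over the libraries of both groups.

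Depth limits the weaker genes: counting error alone is 4.77% of the level at the 439 reads of *Stx1a* and 0.609% at the 26997 reads of *Syt1*, the fewest of each in a library.

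A replicate block gave 2242 called genes, 1 lower and 2 higher release genes (*Syt2* at an adjusted p of 0.067), and *Stx16* (0.0545) and *Snap29* (0.0715) also lost their calls, the other genes named keeping theirs. The letters share only a name, since deviations of same-letter libraries correlated at -0.04, -0.19 and -0.01, and no library correlated best with its own letter.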
